A study of Mus musculus with 32 samples.

Results

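DART-seq editing was compared between neurites and soma of WT hippocampal neurons for every RNA with a called C2U site, 5643 RNAs in all out of the 55573 genes of the count table. All RNAs in the authors' editing table were taken, without a threshold, and the 2 compartment scores of each RNA were set against each other. In DART-seq, RNA is treated with APOBEC1-YTH, a cytidine deaminase joined to the domain that binds m6A, so that a cytidine next to an m6A is read as a C2U change. An RNA's editing score is the sum of the average C2U fractions at its called sites. Each compartment score averages 4 of the 8 WT DART-seq libraries, 2 Ctrl and 2 KCl, and there is 1 value per RNA and compartment. The score ratios therefore carry no replicate error and no test, and the read depth behind a site is not known beyond the minimum that the study's site calling required. The 1.5-fold limit used for them is a description of size.

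The WT (C57BL/6) neurons came from neonatal mice and were grown for 15 days on porous membranes, above which the soma fraction was scraped and below which the neurites were collected. The WT cells, like the Mettl3 KO cells (Mettl3Flox/Flox), received an AAV that expresses Cre and dTomato on day 7 in culture. The promoter of this AAV, hSyn, is a neuronal one. All cultures were silenced with 1 µM TTX and 50 µM D-AP5 for 16 h. They were then left without treatment (Ctrl) or received 55 mM KCl for 2 h. The deamination used 50 ng of RNA and 250 ng of APOBEC1-YTH and lasted 6 h by the sample labels. The soma and the neurite sample of a pair came from the same insert, and Ctrl and KCl cultures of a replicate from the same litter. Replicates came from distinct litters, and the tissue of the pups of a litter was pooled. The soma fraction can hold neurites that stayed above the membrane. The Mettl3 KO score averages all KO libraries and is not split by compartment, so the background level in soma and in neurites separately was not measured here.

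The methylation m6A is placed on RNA by a writer complex with METTL3 as its catalytic subunit, is read by proteins with a YTH domain, and can be removed by FTO and ALKBH5. In mRNA it lies mostly in the sequence DRACH and is frequent near stop codons and in 3′UTRs. Neurons send many mRNAs into dendrites and axons, among them those of Camk2a, a synaptic kinase, and Map2, a dendritic microtubule-associated protein.

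The list held 18231 lines for the 5643 RNAs, of which 84 repeated a site. At every listed position the genome (GRCm38, the build called mm10) had the C of an RAC, on the strand of the RNA, and 5565 RNAs were matched to a gene of GENCODE M21. On the transcript with the longest coding sequence, 59.6% of the sites lay in the CDS, 29.2% in the 3′UTR and 3.43% in the 5′UTR. The sequences below show the site with the highest WT C2U level in 5 RNAs whose score was higher in neurites, in 3 whose score was higher in soma and in Reln, which had the most sites. Each covers 21 bases of the RefSeq sequence of GRCm38 on the strand of the RNA, 5′ to 3′, and the capitals mark the RAC, whose C is the edited base.
Hectd3 (chr4:116998494-116998514, plus strand, CDS, WT C2U 8.10%): aaggcactGACccagaagtac
Ppp2r3c (chr12:55288467-55288487, minus strand, CDS, WT C2U 16.3%): agtcaagaAACaaattggttt
Scrt1 (chr15:76517562-76517582, minus strand, 3′UTR, WT C2U 23.6%): gcctttgtGACatcactgcat
Ogdh (chr11:6347100-6347120, plus strand, CDS, WT C2U 10.5%): gtgttatcGACgaaatggcca
Map2 (chr1:66440353-66440373, plus strand, intron or exon of another isoform, WT C2U 12.8%): cccccaaaGACctcttgatca
Leo1 (chr9:75445634-75445654, plus strand, CDS, WT C2U 8.01%): agtcagatGACgagaagctgc
Gdpd1 (chr11:87033999-87034019, minus strand, 3′UTR, WT C2U 20.9%): gagtactaGACgtcttttgcc
Slc35f5 (chr1:125595456-125595476, plus strand, 3′UTR, WT C2U 10.2%): caagtcatAACagttttaaag
Reln (chr5:21978980-21979000, minus strand, CDS, WT C2U 16.6%): ttgaaatgAACatgggctgca

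Across RNAs the editing score was higher in neurites. The median score was 0.0888 in soma and 0.116 in neurites, and the scores summed over all RNAs were 714 and 919, a ratio of 1.29. Both scores were above 0 in 5423 RNAs. Of these, 3834 (70.7%) had the higher score in neurites, 1587 in soma, and 2 had equal scores. The median log2 ratio of neurites over soma was 0.41, or 1.33-fold, with quartiles of −0.12 and 0.92. The score was at least 1.5-fold higher in neurites in 2215 RNAs (40.8%) and at least 1.5-fold higher in soma in 708 RNAs (13.1%). Relative to the median ratio, the same limit gave 1215 and 1245 RNAs, near-equal counts that the centring itself favours. The 2 scores had a Spearman correlation of 0.80 across the 5423 RNAs, which share the sites summed in both scores and the libraries.

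**Figure D1:**
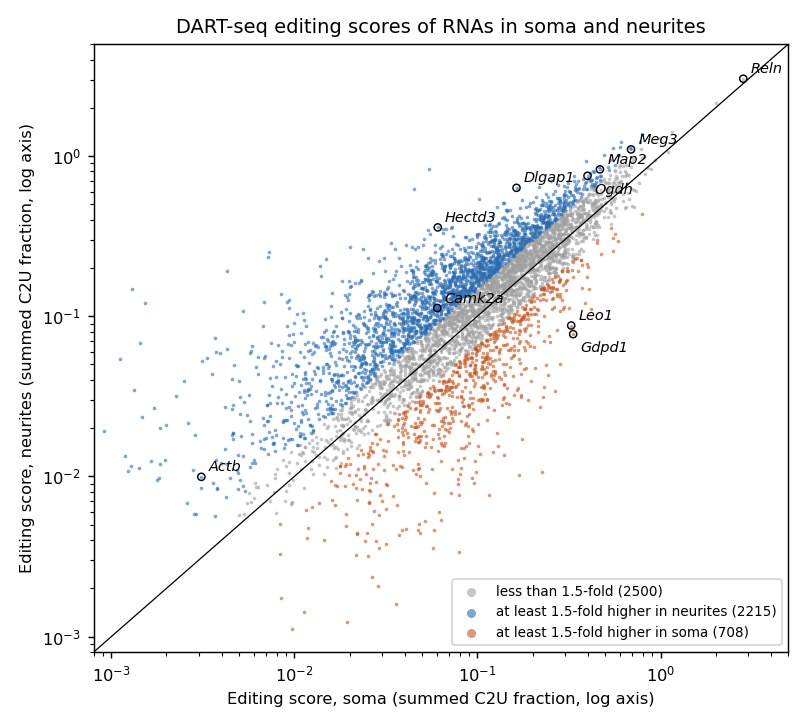
Editing score (summed C2U fraction, 1 pooled value per RNA) in WT soma (x axis) and in WT neurites (y axis), both on log axes, for the RNAs with both scores above 0; the line marks equal scores. Of the 5423 RNAs, 2215 are at least 1.5-fold higher in neurites and 708 in soma, and the spread around the line is widest at low scores.

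The WT score lay between the 2 compartment scores in 5571 RNAs, but was their midpoint (within 1e-06) in only 12. In the RNAs with 1 site, the share of the soma score in the WT score had a median of 0.548 (1757 RNAs, quartiles 0.476 and 0.612). This share had a Spearman correlation of −0.41 with the RNA-seq log2 ratio of neurites over soma across 1701 of them, which share the RNA libraries. The libraries thus did not enter these averages with equal weight in every RNA, and the weights are not given in the sources used here.

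The spread of the ratios narrowed with the number of sites. Sites were counted as lines of the site list, which repeats sites in 27 RNAs. RNAs with 1 site (1618 with both scores) had a median log2 ratio of 0.40 and an SD across RNAs of 1.37. With 2 sites (1159 RNAs) the median was 0.35 and the SD 1.07. With 3 to 4 sites (1349 RNAs) they were 0.42 and 0.81, and with 5 to 9 sites (1098 RNAs) 0.42 and 0.55. RNAs with 10 or more sites (199) had a median of 0.55 and an SD of 0.38. The medians of the lowest and highest class lay further apart with 0.01 added to both scores (0.21 with 1 site, 0.53 with 10 or more) and with the Mettl3 KO score subtracted (0.51 and 0.90). Adding the same value to both scores moves log2 ratios towards 0, most at low scores, and subtracting it moves them away from 0. These shifts thus follow in part from the arithmetic. The share with a neurite score at least 1.5-fold above soma moved little over these 5 classes, between 38.3% and 45.7%. The share at least 1.5-fold higher in soma went from 21.5% of the RNAs with 1 site, through 16.2%, 10.4% and 2.91%, to 0 of the 199 with 10 or more sites. The RNA level moved with the number of sites: the median CPM was 36.8 in RNAs with 1 site and 173 in those with 10 or more. Within the highest of 5 equal classes of RNA level (at least 144 CPM), the SD still went from 1.24 with 1 site to 0.35 with 10 or more, and the soma share from 16.5% to 0. Within the RNAs with 1 site, the SD was 1.36 in the lowest and 1.24 in the highest class of RNA level. The score per RNA also moved with the number of sites, since it is a sum, and its part in the spread was not tested. Site calling did not require calls in both compartments, so an RNA with 1 site could be listed through its higher compartment alone. How far this widened the ratios of RNAs with few sites was not tested either.

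**Figure D2:**
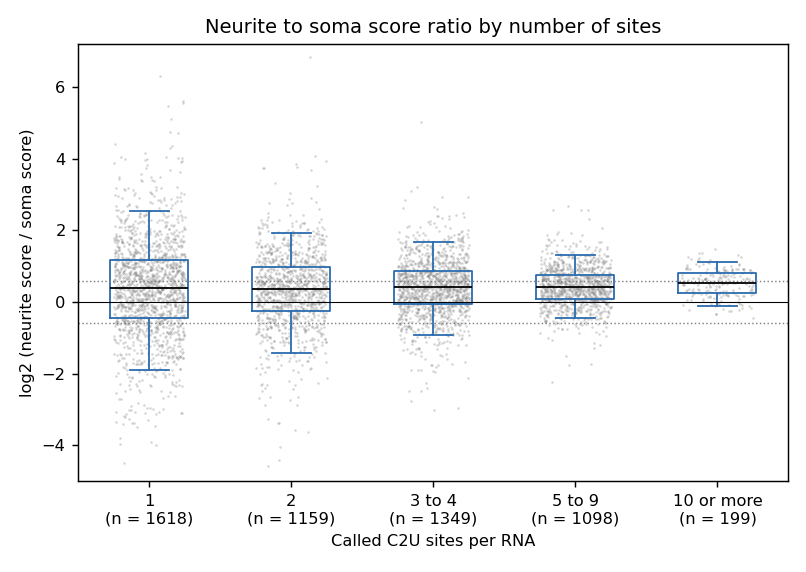
Log2 ratio of the neurite over the soma editing score (y axis) by the number of called sites per RNA (x axis, with the RNAs measured). Boxes show the median and quartiles, whiskers the 5th and 95th percentiles, grey points single RNAs and dotted lines 1.5-fold; the medians lie between 0.35 and 0.55 while the SD goes from 1.37 to 0.38.

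Reln, which encodes the secreted glycoprotein reelin, had 54 sites and the highest scores of all RNAs, 2.83 in soma and 3.03 in neurites, a ratio of 1.07. Its Mettl3 KO score was 0.678. Map1a, a microtubule-associated protein, had 23 sites (0.412 and 0.694), and so had Dync1h1, the heavy chain of cytoplasmic dynein (0.580 and 0.733). Mcf2l had 21 sites and was 2.01-fold higher in neurites (0.608 and 1.22). Lrp1, an endocytic receptor, had 21 sites (0.681 and 1.12) and Fgfr1, a growth factor receptor, had 20 (0.430 and 0.804). The noncoding RNA Meg3 had 20 sites and scores of 0.690 and 1.10. Rapgef1, an exchange factor for Rap, and 1500011B03Rik had 20 lines that cover 10 distinct sites each, with ratios of 1.23 and 2.07. Among the 10 RNAs with most sites, none had the higher score in soma, and the ratios ran from 1.07 to 2.07. The score was higher in neurites in 88.9% of the 199 RNAs with 10 or more sites and in 70.7% of all RNAs.

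By mean score, Snapc1l came second after Reln with 6 sites and scores of 2.02 and 2.15. The 3 Snapc1l sites looked up had 1 identical window of 21 bases and the same WT C2U of 34.6%, and each of the 6 sites held 16.7% of the summed fraction. Its score is thus 1 value counted at repeated copies of a sequence and is uncertain. Snapc1l was not matched to the annotation and has no KO score in the table. Jak1, a cytokine receptor kinase, had scores of 1.16 and 1.42, and Usp9x, a deubiquitinase, of 0.997 and 1.29. Cdv3 had scores of 0.780 and 1.11. Nav1, a neuronal navigator (1.10 and 1.07), and Ntrk2, the receptor of BDNF (0.927 and 0.939), were nearly even.

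The 10 highest and 10 lowest ratios were taken among the 1224 RNAs with at least 3 sites and a mean of both scores of at least 0.2. They were chosen by the ratio, so their ratios are a description. Hectd3, a ubiquitin ligase, had the highest, with scores of 0.0607 in soma and 0.358 in neurites, 5.90-fold, over 5 sites. Ppp2r3c, a regulatory subunit of protein phosphatase 2A, followed with 0.102 and 0.537 over 3 sites. For Scrt1, a neuronal zinc finger repressor, the scores were 0.0714 and 0.356. The soma score of Scrt1 was below its KO score of 0.0876, and its site printed above held 70.2% of the summed WT C2U fraction. Dlgap1, a scaffold of the postsynaptic density, had 0.163 and 0.633 with a KO score of 0.145, so its soma score was close to background. The others were Mcrs1, a subunit of chromatin complexes (3.77-fold), Ckap5, a microtubule polymerase (3.64-fold), and Idh2, a mitochondrial isocitrate dehydrogenase (3.47-fold). Nacc2, a transcriptional repressor (3.38-fold), Eef2k, the kinase of elongation factor eEF2 (3.26-fold), and Arhgap44 (3.25-fold), completed them.

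At the other end, Gdpd1, a phosphodiesterase of lysophospholipids, had scores of 0.333 in soma and 0.0772 in neurites, 4.32-fold, over 4 sites. Its neurite score was below its KO score of 0.139, and 68.0% of its summed fraction came from the site in the 3′UTR printed above. Slc35f5, of the nucleotide sugar transporter family, had 0.416 and 0.111 with a KO score of 0.107. Leo1, a subunit of the PAF1 complex of RNA polymerase II, had 0.325 and 0.0874 with a KO score of 0.0421, a ratio of 3.72. Eci2, an isomerase of fatty acid oxidation, was 3.22-fold higher in soma, Epha4, an ephrin receptor, 2.83-fold and Cat, catalase, 2.74-fold. For Map9 the ratio was 2.49, for Plpbp 2.30, for Gpbp1 2.28 and for Astn1, a neuronal adhesion protein, 2.16.

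**Figure D3:**
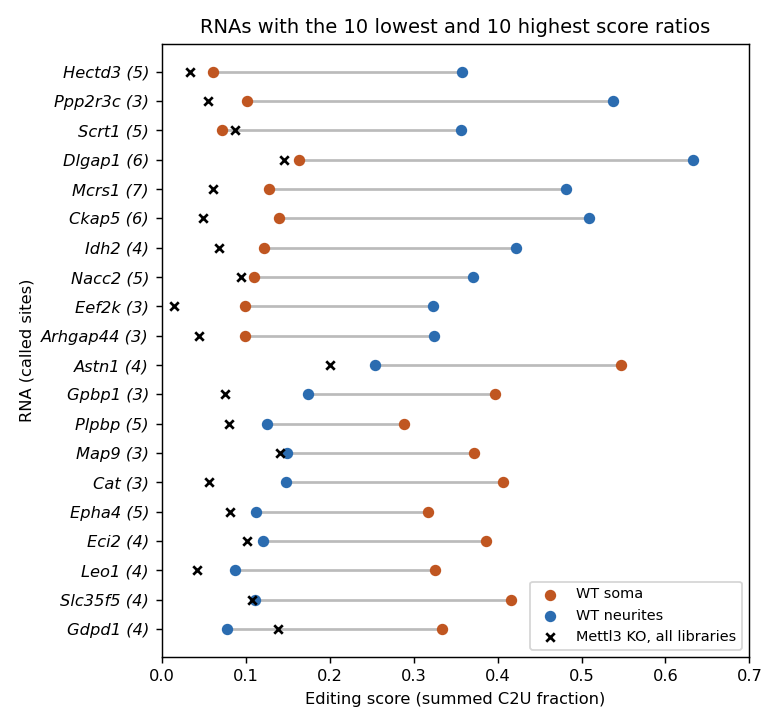
Editing scores (x axis, summed C2U fraction, starting at 0) in WT soma, WT neurites and the Mettl3 KO average for the 10 highest and 10 lowest ratios among RNAs with at least 3 sites and a mean score of at least 0.2; brackets give the sites. The lower score of Scrt1 and of Gdpd1 lies below its KO score, and those of Slc35f5, Map9 and Dlgap1 lie just above it.

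The RNAs that the study had singled out, in DART-seq or in its other localization experiments, differed in size of score. Map2 had 16 sites and scores of 0.467 and 0.825 (1.77-fold higher in neurites), with a KO score of 0.298. Ogdh, a subunit of the 2-oxoglutarate dehydrogenase of the citric acid cycle, had 11 sites and scores of 0.399 and 0.752 (1.88-fold). Camk2a had 6 sites and far lower scores, 0.0603 and 0.113 (1.87-fold), against a KO score of 0.0499. Actb, cytoplasmic actin, had 1 site with scores of 0.00310 and 0.00993, and its soma score was below its KO score of 0.00323. Shank1, a postsynaptic scaffold, had 0.250 in soma and 0.215 in neurites over 7 sites, and Homer1, another, had 0.124 and 0.125. Bdnf, a neurotrophin, had 0.292 and 0.430. Mettl3 itself had 0.128 and 0.153 over 3 sites and a KO score of 0.

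Among RNAs of synaptic proteins, the presynaptic and postsynaptic density lists and the GABA and glycine receptors had medians above that of all RNAs. Glutamate receptors and ion channels did not, but for 1 channel list this depended on the RNAs with few sites. Of 55 presynaptic RNAs with both scores, 28 (50.9%) had a neurite score at least 1.5-fold above soma and 5 (9.09%) the reverse, beside 40.8% and 13.1% of all RNAs, with a median log2 ratio of 0.59. They included Unc13a, a priming factor of vesicle release, at 1.41, Stx1a, a plasma membrane SNARE, at 1.60, and Vamp2, its vesicle partner, at 2.09. Sv2b, a vesicle glycoprotein with 7 sites, went the other way with scores of 0.565 in soma and 0.325 in neurites. Cadps and Ppfia3, those with most sites, had log2 ratios of 0.52 and 1.12. For 41 postsynaptic density RNAs the median was 0.54, with 16 (39.0%) at least 1.5-fold higher in neurites and 4 (9.76%) in soma, so its share past the limit in neurites was no higher than that of all RNAs. Dlg4, which encodes PSD-95, had 0.0394 and 0.104, Dlgap4 0.184 and 0.479, Add2 0.414 and 0.784, and Dlg3 0.516 and 0.853. The 18 RNAs of glutamate receptors and their auxiliary subunits had a median of 0.39, close to all RNAs. Gria2 had 0.446 and 0.614, and Grin1, the obligatory NMDA receptor subunit, 0.199 and 0.194. Within the 6 receptors for GABA and glycine, Gabbr1 (0.0756 and 0.157) and Gabbr2 (0.332 and 0.229), which form 1 receptor together, went opposite ways. The median of these 6 was 0.57, or 0.91 over those with at least 3 sites. The 20 potassium channels had a median of 0.40 (Kcnip2 0.29) and the 13 sodium, calcium and HCN channels 0.23 (Cacnb3 0.91, Scn2b −0.09). Over RNAs with at least 3 sites, the sodium, calcium and HCN channels were at 0.53, beside 0.55 for the postsynaptic density. Potassium channels were then at 0.35 and glutamate receptors at 0.30.

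The list for axon guidance had a higher median. Of 18 ephrins, semaphorins, plexins, slits, netrins and their receptors with both scores, 11 (61.1%) had a neurite score at least 1.5-fold above soma and 3 (16.7%) the reverse, and the median log2 ratio was 0.78. Efnb2 had scores of 0.350 and 0.595 and Nrp2 of 0.299 and 0.518, while Sema4c reached 0.0201 and 0.269. Epha4, Sema4g and Slit3 were the 3 on the soma side. The 12 cadherins and protocadherins had a median of 0.36, with Cdh2 at 0.40 and Pcdhgc3 at 0.22.

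Of the 4 cytoskeletal lists, tubulins had the highest median and actin regulators the lowest. The low rank of actin regulators depended on the RNAs with few sites. Over RNAs with at least 3 sites they were at 0.40, beside 0.38 for motors and 0.43 for microtubule-associated proteins. The 11 tubulin RNAs had a median log2 ratio of 1.02, with 8 at least 1.5-fold higher in neurites and 0 in soma. Several rested on scores near 0: Tubb3, the neuronal beta tubulin, had 0.000519 and 0.0140 at 1 site, with a KO score of 0.00325. With 0.01 added to both scores the tubulin median was 0.65. Tubg1, gamma tubulin of microtubule nucleation, had 0.152 and 0.457 over 3 sites, and Tubb4b and Tuba4a, those with most sites, had ratios of 1.34 and 2.03. The 34 RNAs of kinesin, dynein and dynactin motors had a median of 0.41, with Kif1a, a carrier of synaptic vesicle precursors, at 0.37. The 34 microtubule-associated proteins had 0.37, with Map4 at 0.43. For the 49 actin regulators the median was 0.28 and 12 (24.5%) were higher in neurites, with Cyfip2, of the WAVE complex, at 0.28.

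The lists for energy metabolism had medians above that of all RNAs, and some of these medians moved with the setting. With 0.01 added to both scores the respiratory chain was at 0.41, beside 0.35 for all RNAs. Over RNAs with at least 3 sites, glycolysis was at 0.43 and the respiratory chain at 1.01. All RNAs with 3 to 4, 5 to 9 and 10 or more sites had medians of 0.42, 0.42 and 0.55. The 38 nuclear-encoded RNAs of the respiratory chain had a median log2 ratio of 0.61, with 21 (55.3%) at least 1.5-fold higher in neurites and 4 (10.5%) in soma. Cox6b2 had scores of 0.101 and 0.203 and Sdha, of complex II, 0.0639 and 0.141. In the citric acid cycle and pyruvate dehydrogenase, 11 of 21 (52.4%) were higher in neurites, with a median of 0.59. Besides Ogdh and Idh2 these included Idh3a at 0.86, and Dlst, another subunit of the Ogdh complex, had 0.198 and 0.298, just past the limit. Glycolysis had a median of 0.66 over 18 RNAs, of which Gapdh had 0.000537 and 0.00886 at 1 site and Pkm, pyruvate kinase, 0.112 and 0.151 at 10. Slc2a1, a glucose transporter, was on the soma side at 0.0317 and 0.00379. The 29 cytosolic ribosomal protein RNAs had a median of 0.57, which was 0.15 over those with at least 3 sites. Rps15a and Rpl5, those with most sites, had ratios of 1.07 and 1.11. The 58 RNAs of mitochondrial ribosomal proteins had 0.43 (Mrpl20 0.11, Mrpl24 0.13). The 57 translation factors had 0.43, with Eif3b at 0.43 and Eif4g2, a scaffold of initiation, at 1.31.

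The autophagy and lysosome list (28 RNAs) had a median of 0.56. None of its RNAs was at least 1.5-fold higher in soma and 13 (46.4%) were higher in neurites, beside 13.1% and 40.8% of all RNAs. Becn1, of autophagosome formation, was at 0.49, Ctsa at 0.64 and Atg13 at 1.51. The proteasome and ubiquitin conjugation list (69 RNAs) had a median of 0.47, with Ube2o at 0.56 and Ube4b at 0.44. The chaperones (45) had 0.52, with Dnajc5, a chaperone of synaptic vesicles, at 0.52 and Hspa12a at −0.10. The trafficking list of Rab, VPS and sorting nexin genes (94) had 0.44, with Rab6b at −0.06 and Copg1 at 0.59. The solute carriers (85) had 0.40, with Slc12a5, the neuronal chloride exporter KCC2, 2.09-fold higher in neurites (0.336 and 0.700) and Slc25a23 at 0.90. The phosphatase list (60) had 0.51, with Ppp1r37 at 0.61 and Rcan3, an inhibitor of calcineurin, at 0.78. The kinases of MAPK, PKA, PKC and mTOR signalling (50) had 0.26, although Map3k12 and Prkcz, those with most sites, were at 0.64 and 0.71. The immediate early and activity-induced genes (35) had 0.38. Per1 (0.501 and 0.513) and Dusp4 (0.299 and 0.255) were nearly even. Nr4a1, an orphan nuclear receptor, had 0.249 and 0.470 over 10 sites.

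Lists of nuclear proteins had medians at or below that of all RNAs, or within 0.01 of it, but some of them depended on the RNAs with few sites. Over RNAs with at least 3 sites, the median was 0.30 instead of 0.11 for RNA polymerase II transcription, 0.63 instead of 0.38 for Zfp genes and 0.24 instead of 0.41 for nuclear transport. The 49 RNAs of RNA polymerase II transcription, the PAF1 complex and Mediator had a median of 0.11, with 15 (30.6%) at least 1.5-fold higher in neurites and 11 (22.4%) in soma. Leo1 belongs to this list with Paf1, which had 1 site and scores of 0.116 and 0.00769. Rtf1, a further PAF1 subunit, was at 0.28, so the subunits did not move alike. Supt5, an elongation factor, was at 0.32 and Nelfb, of the pausing factor NELF, at 1.30 over 7 sites. Splicing factors and hnRNPs (79 RNAs) had a median of 0.18, with 30 (38.0%) and 14 (17.7%) on the neurite and soma sides. Srrm2 had 0.444 and 0.733 and Prpf8, at the core of the spliceosome, 0.568 and 0.659, whereas Hnrnpa1 had 0.0782 and 0.00962 at 1 site. Chromatin regulators (75) had 0.31 (Chd4 0.14, Smarca4 0.23). Zinc finger Zfp genes (41) had 0.38 (Zfp131 −0.12, Zfp106 0.12). The nuclear transport list (29) had 0.41 (Tnpo2 0.66, Ipo9 0.72).

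The RNAs of the m6A machinery lay on both sides. Of 11, 3 had a neurite score at least 1.5-fold above soma and 5 the reverse, with a median of 0.05. Both demethylases were on the neurite side, with Fto at 0.131 and 0.380 over 5 sites and Alkbh5 at 0.106 and 0.278 over 2. The cytoplasmic readers were on the soma side, each with 1 site: Ythdf1 had 0.101 and 0.0300, Ythdf2 0.0462 and 0.0174, and Ythdf3 0.168 and 0.0818. Among writers and their subunits Wtap was at 0.74, Mettl3 at 0.26 and Zc3h13 at 0.15, while Rbm15b and Mettl16, with 1 site each, were at −1.12 and −1.54. The nuclear reader Ythdc1 was nearly even. Over the 4 members that had 3 or more sites, the median was 0.50. The 44 RNAs of granule and neuronal RNA-binding proteins had a median of 0.42, with Elavl3, a neuronal Hu protein, at 0.76 and Purb at 0.18. Of 9 long noncoding RNAs, 3 reached 1.5-fold on the neurite side and 1 on the soma side. That 1 was Malat1, a nuclear RNA, with scores of 0.282 and 0.138 at 1 site and a KO score of 0.138.

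**Figure D4:**
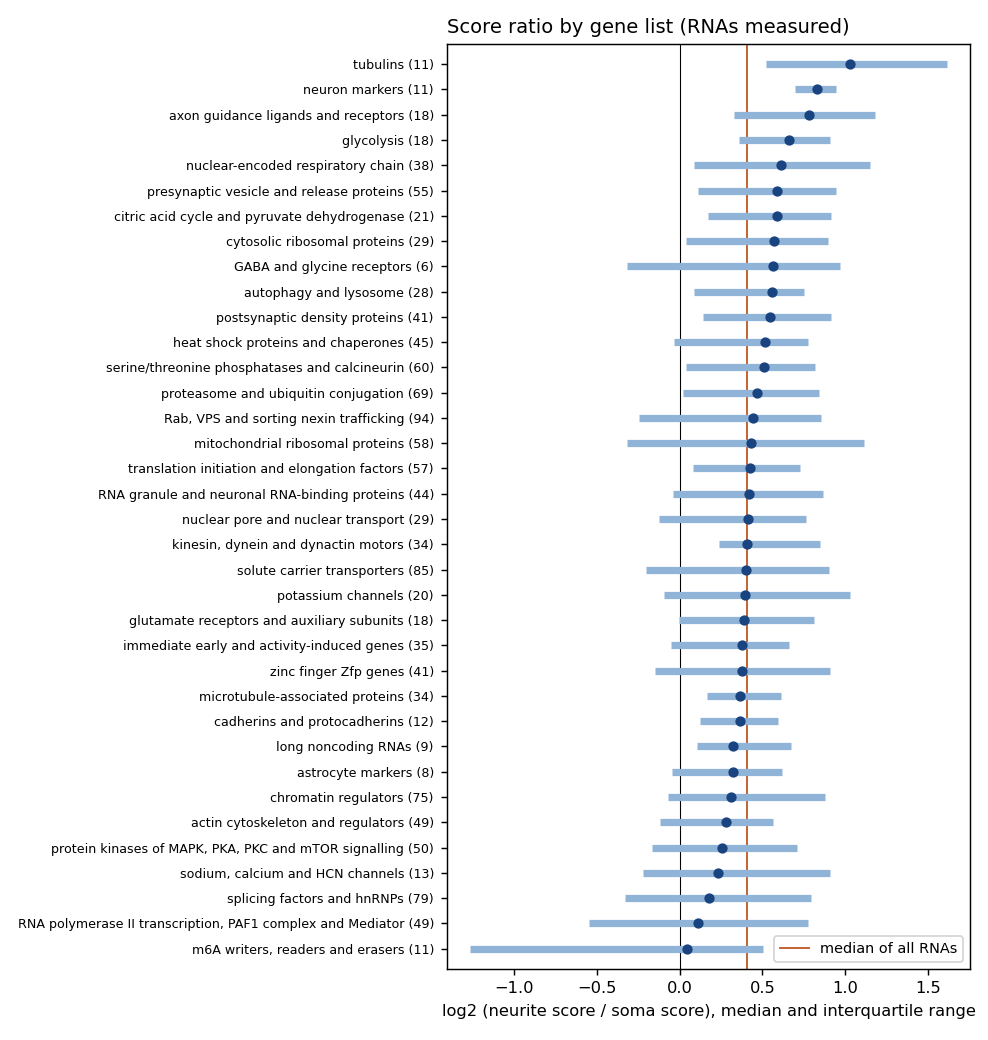
Median (dot) and interquartile range (bar) of the log2 ratio of the neurite over the soma score for 36 of the 37 lists with at least 5 RNAs measured (number in brackets); the coloured line marks the median of all RNAs, 0.41. All 36 medians drawn are above 0, from 0.05 for the m6A machinery to 1.02 for tubulins, and the ranges overlap widely.

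All 37 lists with at least 5 measured RNAs had a median above 0, and the 1365 RNAs in any list had a median of 0.43, with 41.2% at least 1.5-fold higher in neurites and 12.5% in soma, near the shares of all RNAs. Of the neuron markers, 9 of 11 had a neurite score at least 1.5-fold above soma and 0 the reverse (median 0.83), among them Syn1, a synaptic vesicle phosphoprotein (0.112 and 0.216), and Rbfox3, which encodes the nuclear antigen NeuN (0.0901 and 0.301, KO 0.0874). Markers of astrocytes were in the table as well: 8 of 11 had called sites, and their median was 0.32, with Slc1a2, a glutamate transporter, at 0.54, S100b at 0.54 and Sox9 at −0.70. Only 1 of 9 microglia markers (Cx3cr1), 2 of 10 oligodendrocyte lineage markers and 0 of 11 fibroblast and vascular markers had a called site. The summed RNA level of the neuron markers was 5245 to 7006 CPM in the 4 WT soma libraries and 10579 to 12833 CPM in the 4 neurite libraries. Much of this difference came from Camk2a, with means of 1661 CPM in soma and 6263 in neurites, and Map2, with 519 and 1497. The sum therefore does not describe the neuron markers in general. Of the 11 neuron markers, edgeR called 3 higher in neurites and 1 higher in soma, beside 10.2% and 5.86% of all genes tested. The summed level of astrocyte markers was 1031 to 1464 and 1727 to 2620 CPM, and that of microglia markers 12.7 to 20.9 and 21.9 to 38.5 CPM. For oligodendrocyte lineage markers the sum was 87.3 to 98.0 and 112 to 148 CPM, and for fibroblast and vascular markers 16.2 to 41.0 and 33.4 to 91.5 CPM. Of the markers tested, edgeR called 3 of 11 for astrocytes and 3 of 8 for microglia higher in neurites. For the oligodendrocyte lineage it called 2 of 9 and for fibroblasts and vessels 4 of 10. No marker of these other cell types was called higher in soma. In bulk RNA, fewer cells of a type and less RNA per cell cannot be told apart, and the part of glial RNA in the score ratios was not tested.

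RNA-seq of the same kinds of WT samples gave the RNA level of each compartment from 8 libraries that did not enter the scores. In edgeR (quasi-likelihood test, two-sided, with treatment as a covariate and Benjamini-Hochberg adjustment), 10.2% of 23200 genes were called higher in neurites and 5.86% higher in soma at 1.5-fold and an adjusted p of at most 0.05. Of 5507 RNAs with called sites that were tested, 622 (11.3%) were higher in neurites and 183 (3.32%) higher in soma. RNAs higher in neurites had a median log2 score ratio of 0.52 (608 with both scores), uncalled RNAs of 0.39 (4510) and RNAs higher in soma of 0.33 (172). The score was at least 1.5-fold higher in neurites in 47.4%, 40.0% and 38.4% of these classes, and at least 1.5-fold higher in soma in 8.55%, 13.3% and 21.5%. Across the 5290 RNAs with both ratios, the Spearman correlation was 0.08, and 0.15 over the 1273 with at least 5 sites. The RNAs share the libraries, and the score averages are weighted by a scheme that is not given.

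The lists were counted by RNA level as well, beside 11.3% of all tested RNAs with sites higher in neurites and 3.32% higher in soma. By the same edgeR test, 19 of 41 RNAs of the postsynaptic density, 13 of 56 presynaptic RNAs, 15 of 32 cytosolic ribosomal protein RNAs and 15 of 38 RNAs of the respiratory chain were higher in neurites. Of 81 splicing factors and hnRNPs, 1 was called in neurites and 6 in soma, and of the 8 long noncoding RNAs tested 3 were called in soma.

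**Figure D5:**
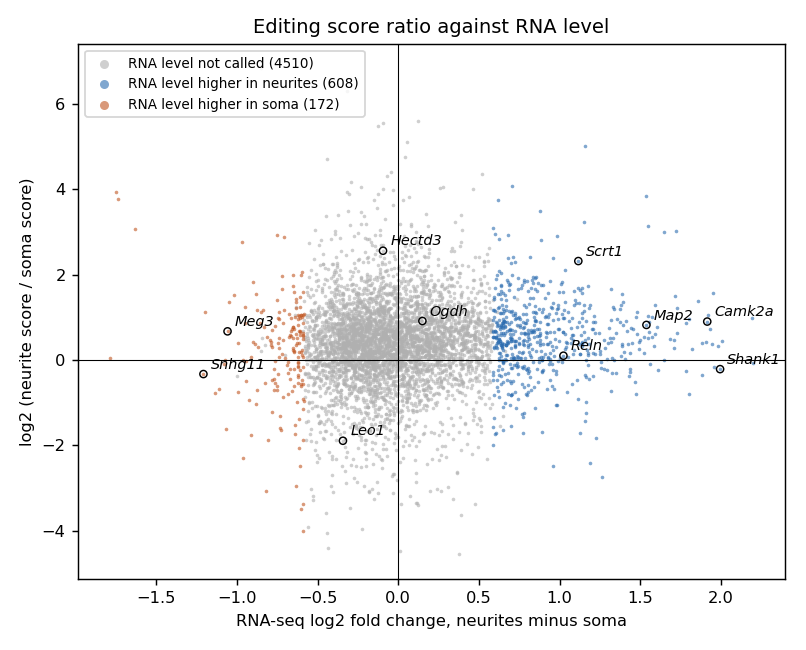
Log2 ratio of the neurite over the soma editing score (y axis) against the RNA-seq log2 fold change between neurites and soma (x axis) for the RNAs with both, coloured by the RNA-seq call. Named RNAs lie in all parts: Camk2a and Map2 are higher in neurites on both axes, and Meg3 is higher in soma by RNA level and in neurites by score. Leo1 and Hectd3 lie far apart in score, and neither is called by RNA level (log2 change of −0.34 and −0.09).

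Single RNAs differed in how score and RNA level went together. Hectd3 measured 49.2 and 53.9 CPM in the WT soma Ctrl libraries, 32.8 and 42.4 in soma KCl, 43.6 and 41.2 in neurite Ctrl and 41.3 and 39.0 in neurite KCl. The neurite values of Hectd3 lay inside the soma range, and its log2 change was −0.09 (SE 0.11, edgeR adjusted p = 0.529) at a score 5.90-fold higher in neurites. Ogdh measured 195 and 214 CPM in soma Ctrl, 249 and 260 in soma KCl, 240 and 263 in neurite Ctrl and 247 and 262 in neurite KCl. Its groups overlapped, with a log2 change of 0.15 (SE 0.08, edgeR adjusted p = 0.196).

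Map2 measured 450 and 465 CPM in soma Ctrl, 542 and 618 in soma KCl, 1305 and 1741 in neurite Ctrl and 1533 and 1411 in neurite KCl. All 4 neurite libraries were above all 4 soma libraries, with a log2 change of 1.54 (SE 0.11, edgeR adjusted p = 6.02e-06). Camk2a measured 1455 and 1675 CPM in soma Ctrl, 1750 and 1765 in soma KCl, 5786 and 7275 in neurite Ctrl and 6558 and 5432 in neurite KCl. Its log2 change was 1.92 (SE 0.10, edgeR adjusted p = 2.45e-06), again without overlap. Shank1, with a nearly even score, rose in neurites by a log2 change of 2.00 (SE 0.15, edgeR adjusted p = 6.02e-06), and Reln by 1.02 (SE 0.09, edgeR adjusted p = 1.45e-05).

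Meg3 measured 1991 and 1949 CPM in soma Ctrl, 2191 and 2364 in soma KCl, 941 and 838 in neurite Ctrl and 1030 and 1295 in neurite KCl. All neurite libraries were below all soma libraries, with a log2 change of −1.06 (SE 0.09, edgeR adjusted p = 1.23e-05), while its score was 1.59-fold higher in neurites. Snhg11 had a log2 change of −1.21 (SE 0.11, edgeR adjusted p = 1.58e-05) and scores of 0.273 in soma and 0.217 in neurites. Leo1 measured 36.3 and 34.1 CPM in soma Ctrl, 44.5 and 35.2 in soma KCl, 26.1 and 26.2 in neurite Ctrl and 30.2 and 36.4 in neurite KCl. One neurite library lay inside the soma range, and its log2 change of −0.34 (SE 0.10, edgeR adjusted p = 0.0224) was below 1.5-fold, at a score 3.72-fold higher in soma.

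The ratio was also read by the place and the bases of the site. Among the RNAs with 1 site, the median log2 ratio was 0.43 for sites in the 3′UTR (488 RNAs), 0.35 in the CDS (896) and 0.62 in the 5′UTR (54), with SDs of 1.27, 1.44 and 1.21. Sites in GAC (851 RNAs) had a median of 0.50 and sites in AAC (767) of 0.28. Among RNAs with at least 3 sites, the median was 0.44 where none of the sites was in the 3′UTR (998 RNAs) and 0.39 where all were (127), while the median RNA-seq log2 ratio of these classes was −0.09 and 0.13. The share of sites in GAC did not order the ratio in RNAs with at least 3 sites: the median was 0.40 with up to 25% of sites in GAC (356 RNAs) and 0.43 with over 75% (395). Of all sites, 53.7% were in GAC and 70.9% in DRACH, that is, with A, G or T before and A, C or T after the RAC. The DRACH share was 69.7% in RNAs at least 1.5-fold higher in neurites, 71.1% in those higher in soma and 71.8% in the rest.

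The KO score gives the background of each RNA over all KO libraries. Its median was 0.0285 over the 5634 RNAs that have one. The soma score was at or below it in 164 RNAs (2.91%) and the neurite score in 240 (4.26%), and in neither compartment in an RNA with 10 or more sites. Called sites had to exceed the KO libraries, so the calling itself favoured WT scores above the KO score. Of the 2215 RNAs at least 1.5-fold higher in neurites, 115 had a soma score at or below the KO score, and of the 708 higher in soma, 69 had such a neurite score. With the KO score subtracted from both scores, 5230 RNAs kept both above 0, with a median log2 ratio of 0.59. Of these, 2631 RNAs were 1.5-fold or more above soma in neurites and 837 the reverse. Subtracting the same value from both scores can only move a log2 ratio away from 0. The larger median and counts thus follow in part from the arithmetic. In RNA-seq, Mettl3 itself was at 7.87 to 19.0 CPM in the 8 WT libraries and 3.57 to 12.8 CPM in the 8 KO libraries. These ranges overlapped, and gene counts do not separate the deleted sequence from the rest. The study itself reported a nearly complete loss of METTL3 protein, loss of the floxed exon and lower m6A in poly(A) RNA of the KO neurons.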

How the data were processed

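The editing scores are the authors' values: the authors aligned with STAR 2.7.7a to the mm10 build, called C2U sites had to exceed the Mettl3 KO libraries and lie in an RAC, and a deposited score sums average C2U over the sites of an RNA. Beside each site the authors deposited an average WT C2U fraction, which equalled the WT score in 1251 of 1825 RNAs with 1 site. The authors' fold changes and adjusted p-values of editing, and their DESeq2 tables of neurite enrichment, hold the study's own comparisons and were not used. The deposited RNA-seq counts are fragments per gene from featureCounts 2.0.1, without normalization, at 38093506 to 71394235 per WT library (n = 8), and intervals over them would cover counting error only.

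The ratio was computed over RNAs with both scores above 0, by number of lines in the site list and by 40 lists of gene symbols written for this work from general knowledge. The RNAs, lists and limits were chosen with earlier results of these data known. RNA levels were fitted in edgeR 4.0.16 (R 4.3.3, TMM, quasi-likelihood, mean count of at least 10, mitochondrially encoded genes left out), on the 8 WT libraries. Whether replicates 1 and 2 came from separate cultures rests on the methods, and p-values measure the spread between these libraries. In a test on simulated data, 100% of the 200 genes (of 22854) given a 4-fold change were found. DESeq2 1.42.0 was an alternative. Sites were placed on GENCODE M21 with Python 3.11.15. Named RNAs are those the study discussed, the 10 highest and 10 lowest ratios (at least 3 sites, mean score at least 0.2), the 10 with most sites, the 10 with the highest mean score, and in each list the 2 with most sites. Other list members were named after their values were seen. A few RNAs and 1 list that these rules name are not reported here.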

Additional observations from a re-analysis of the deposited data

How the results depend on the processing

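The DART-seq values are 1 average per compartment, so no replicate could be left out, and depth at a site limits them to an unknown degree. Relative to the median ratio, 1215 RNAs had a neurite score at least 1.5-fold above soma and 1245 the reverse, and at 2-fold 1203 and 392. The soma count was 446 with a mean score of at least 0.05 and 360 with at least 2 sites. The median log2 ratio of RNAs with 1 site was 0.21 with 0.01 added to both scores. The median with 10 or more sites was 0.53 with 0.01 added. With the KO score subtracted (chosen after seeing the data), the median was 0.59 over the 5230 RNAs with both scores above it. It was 0.51 with 1 site and 0.90 with 10 or more. This subtraction can only move a log2 ratio away from 0. The number of lists with a median above 0 stayed at 37 under all 5 alternatives, while 59 of 185 alternative list medians moved by 0.1 or more and none changed sign. Adding or subtracting the same value in both scores cannot change the sign of a single ratio. Placing sites by any transcript left the 3′UTR minus CDS difference at 0.08.

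For RNA-seq, the 4 KCl libraries alone gave 1419 genes higher in neurites and 388 higher in soma, the 4 Ctrl libraries 745 higher in soma, and a mean count of at least 100 gave 880. Leaving out 1 library gave 1965 to 2513 higher in neurites and 839 to 1419 higher in soma, the lowest soma count without WT soma Ctrl replicate 2. The methods pair soma and neurites by insert, but the labels do not say that equal replicate numbers mark an insert, and same-numbered libraries deviated at a correlation of −0.14 in Ctrl and 0.03 in KCl, which leaves that unsettled. A replicate block by number gave 2248 and 1270 genes and changed no call of the RNAs whose CPM or log2 change the report gives, and crossing the Ctrl numbers (chosen after seeing the data) 2315 and 1339. With the KCl libraries alone the log2 change of Hectd3 was 0.12 and that of Eef2k 0.0623, both reversed in sign and not called. The causes were not tested.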

Other observations

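The RNAs with a score of 0 in 1 compartment have no ratio. By the study's methods, calls in 2 replicates sufficed to keep a site, and calls in both compartments were not required. Calls from 1 compartment alone could thus bring an RNA into the list. How far this produced the scores of 0 was not tested. The neurite score was 0 in 171 RNAs, 160 of them with 1 site and none with more than 2. The highest soma score among them was that of 4931406P16Rik (0.284), and Ppp1r10, a nuclear targeting subunit of protein phosphatase 1, had 0.205. The transcription factors Fos (soma score 0.0307) and Egr2 (0.118, over 2 sites) belonged to this set, as did Man2b2, a lysosomal mannosidase (0.180). The soma score was 0 in 49 RNAs, 47 of them with 1 site. Lipa, the lysosomal acid lipase, had the highest neurite score among these (0.211), followed by Szrd1 (0.174), and Rpl31, a ribosomal protein, had 0.116. By RNA-seq (edgeR, as in the report), 8 of the 171 RNAs were called higher in neurites and 9 higher in soma, and of the 49 RNAs 6 and 2. Of all tested RNAs with sites, 11.3% and 3.32% were called.

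Protein-coding RNAs made up 5518 of the 5643. Of the 14 lincRNAs with both scores, 6 (42.9%) had a neurite score at least 1.5-fold above soma and 2 (14.3%) the reverse. These shares were near the 40.8% and 13.1% of all RNAs. A few lines fall in short RNA genes that overlap or copy other sequence and are uncertain: Rn7s1, the RNA of the signal recognition particle, had scores of 0.0112 and 0.0946, and Snord55, a small nucleolar RNA, 0.0195 and 0.0231.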
